A study of Rattus norvegicus with 9 samples.

Results

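Club and secretory airway genes were described in whole fetal lungs of Sprague-Dawley rats. The 10 members were chosen by name: the secretoglobin genes Scgb1a1, Scgb3a1 and Scgb3a2, the cytochrome P450 gene Cyp2f4, the mucin genes Muc5b and Muc5ac, the BPI-fold genes Bpifa1 and Bpifb1, the polymeric immunoglobulin receptor gene Pigr and the transcription factor gene Spdef. Of these, 8 were matched by Gene ID among the 17465 genes of the table and 7 had enough counts to be tested. Muc5b and Muc5ac were not analysed here, and Bpifa1 was below the filter on low counts. RNA of 9 lungs was sequenced after ribosomal RNA depletion: 3 untreated control lungs, 3 untreated hypoplastic lungs and 3 hypoplastic lungs given AFSC-EV (vesicles released by stem cells from amniotic fluid). Both hypoplastic groups share the hypoplasia, which by the title followed oligohydramnios, too little fluid around the fetus. The sources used here do not give the fetal age, the dose and route of the vesicles, the litters or any sequencing batch. Since nothing says that the lungs of a group came from separate litters, p-values measure the spread between these samples.

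Club cells are secretory cells of the conducting airways. They release small secretoglobin proteins into the airway fluid, carry cytochrome P450 enzymes that metabolise inhaled compounds, and can give rise to multiciliated and goblet cells. Secretory cells of the larger airways and the submucosal glands also make mucins and BPI-fold proteins, which take part in mucus clearance and innate defence, and the ETS-family factor SPDEF acts in goblet cell differentiation. In rodents Scgb3a2 and Scgb1a1 are markers of fetal bronchiolar epithelium, whereas Scgb3a1 is known for the trachea and large bronchi.

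The upstream sequences of 3 members are shown. Scgb1a1 varied least among the lungs, Scgb3a1 was high in 1 lung, and Spdef was lower in hypoplastic than in control lungs without overlap. Spdef was not called by edgeR's quasi-likelihood test (adjusted p 0.323), and 9.05% of all tested genes were also lower without overlap. Each sequence is the 250 bases before the annotated start, 5′ to 3′ on the gene's strand, from RefSeq on build GRCr8 (the counts were made on another build, rn7). Capitals mark CTCAAG, part of the sequence recognised by the lung factor NKX2-1, and TGTTTNC, a forkhead factor motif, on either strand.
Scgb1a1: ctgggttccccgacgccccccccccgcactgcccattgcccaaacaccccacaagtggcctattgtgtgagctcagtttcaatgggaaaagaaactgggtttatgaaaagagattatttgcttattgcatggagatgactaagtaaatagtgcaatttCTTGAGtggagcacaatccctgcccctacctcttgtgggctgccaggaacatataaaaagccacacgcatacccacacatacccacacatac
Scgb3a1: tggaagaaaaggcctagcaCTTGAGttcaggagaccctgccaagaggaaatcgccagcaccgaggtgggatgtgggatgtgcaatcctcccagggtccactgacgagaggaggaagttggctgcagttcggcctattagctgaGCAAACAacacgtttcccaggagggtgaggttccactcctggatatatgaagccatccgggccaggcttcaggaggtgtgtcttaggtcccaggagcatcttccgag
Spdef: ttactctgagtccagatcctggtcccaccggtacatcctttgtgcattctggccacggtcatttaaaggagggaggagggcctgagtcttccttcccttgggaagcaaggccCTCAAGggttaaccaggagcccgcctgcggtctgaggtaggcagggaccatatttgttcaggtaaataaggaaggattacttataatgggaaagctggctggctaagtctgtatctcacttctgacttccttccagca
The Scgb1a1 stretch is chr1:215409687-215409936 on the minus strand, the Scgb3a1 stretch chr10:34468916-34469165 on the plus strand and the Spdef stretch chr20:5787686-5787935 on the minus strand. CTCAAG or its reverse complement CTTGAG was found in these 250 bases in 5 of the 8 members with a RefSeq promoter. They were Scgb1a1, Scgb3a1, Scgb3a2, Bpifa1 and Spdef, and the share was 13.3% of 27457 rat promoters. TGTTTNC or its reverse complement GNAAACA was found in 2 of 8 (Scgb3a1 and Bpifb1) and in 18.1% of all. Both motifs were chosen after the sequences were read, so these shares are no test of enrichment. The 2 motifs do not overlap in any member, and such matches are descriptions of the letters only.

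Library totals ran from 56922779 to 88243188 estimated counts. Levels are given as CPM, the counts of a gene divided by the library's TMM-scaled total and brought to the usual common total, and because they are not corrected for gene length, levels of different genes are not compared. Libraries that stood apart were sought by counting, in each, the genes at 3 CPM or more that lay at least 5-fold above every other library, a measure chosen after the values were seen. There were 15 such genes in hypoplastic library 1, 41 in hypoplastic library 2, 8 in control library 2 and 0 in each of the other 6. By Xist and Y-linked genes, 2 control, 1 hypoplastic and 1 treated lung were male.

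No club or secretory gene passed the test in any comparison. edgeR's quasi-likelihood test called 0 of the 7 tested members at an adjusted p under 0.05 in hypoplastic against control lungs, where 0.00771% of 12966 genes (1 gene) were called. It also called 0 of 7 between treated and hypoplastic lungs and 0 of 7 between treated and control lungs, where the share over all genes was 0% each time. In neither of those did the libraries of any tested member separate the groups, whereas 5.07% of all genes were higher and 4.74% lower without overlap in treated against hypoplastic lungs, and 4.37% and 5.02% in treated against control lungs. Unadjusted p-values fell under 0.05 for 2 members in the first comparison (Scgb3a1 higher, Spdef lower), 1 in the second (Scgb3a1 lower) and 0 in the third. Over all tested genes, 6.67% were higher and 5.69% lower at that level in the first comparison. The shares were 2% and 3.56% in the second, and 1.67% and 2.5% in the third. DESeq2 and limma voom also called 0 members in each comparison. Control library 2 was the highest library for Scgb1a1, Scgb3a2 and Spdef, and the second highest for Scgb3a1, Cyp2f4, Bpifa1, Bpifb1 and Pigr. In treated against control lungs 0 tested members were higher and 7 lower (median log2 difference -0.27), but 5 higher and 2 lower (0.13) without that library. In hypoplastic against control lungs 3 were higher and 4 lower (median -0.13), but 5 higher and 2 lower (0.37) without it. The 3 comparisons share libraries, so their values are given side by side and not as separate evidence.

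**Figure D1:**
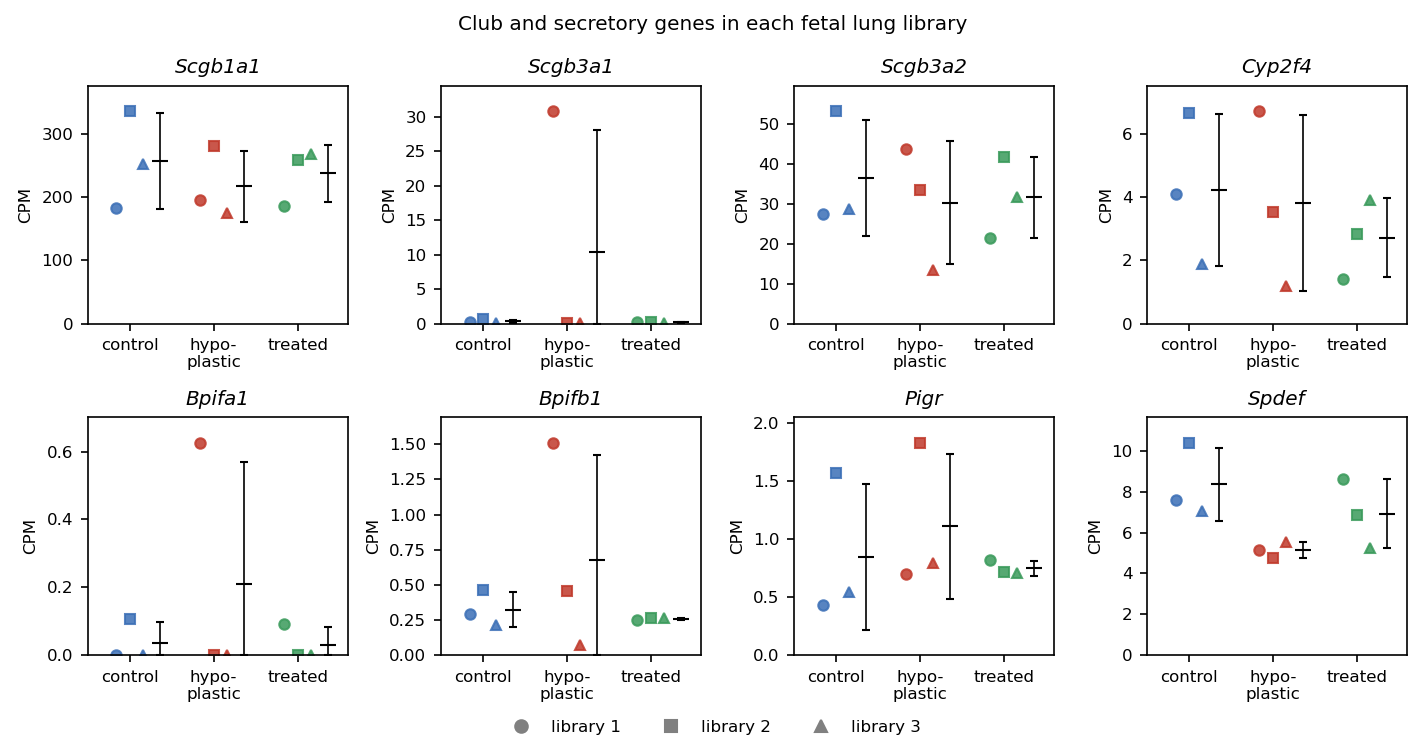
CPM (linear axis from 0, a scale of its own for each gene) of the 8 members in the table, by group. Coloured points are libraries, with the shape giving the library number, and the black dash and bar are the mean and SD of 3 libraries, cut at 0. Scgb3a1, Bpifa1 and Bpifb1 each have their highest point in hypoplastic library 1, and the 3 hypoplastic points of Spdef lie below the 3 control points.

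Scgb1a1 (Gene ID 25575) encodes the club cell secretory protein, uteroglobin. It stood at 184, 336 and 252 CPM in control libraries 1 to 3, at 196, 281 and 175 CPM in the hypoplastic and at 186, 258 and 269 CPM in the treated libraries. The groups overlapped completely, and the highest of the 9 libraries was 1.92 times the lowest. Group means were 257 CPM ± 76.2 in control, 217 CPM ± 56.2 in hypoplastic and 238 CPM ± 45.0 in treated lungs (SD, n = 3 each). The log2 fold change was -0.24 (SE 0.248, edgeR adjusted p 0.721) in hypoplastic against control, 0.13 (SE 0.247, adjusted p 0.964) in treated against hypoplastic and -0.11 (SE 0.247, adjusted p 0.998) in treated against control lungs. With 1 library left out the first ran from -0.47 (without hypoplastic library 2) to -0.0061 (without control library 2), and the second from -0.0022 (without hypoplastic library 3) to 0.36 (without hypoplastic library 2). The last turned to 0.13 without control library 2 and to 0.04 without treated library 1. With 9654 to 21609 counts in each library, counting error was small beside the spread between lungs. In RNA of whole lungs, fewer club cells and less RNA per club cell cannot be told apart.

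Scgb3a2 (Gene ID 498854) encodes a secretoglobin that is a target of NKX2-1 in airway epithelium. Its level was 27.5, 53.1 and 28.7 CPM in the control, 43.7, 33.5 and 13.4 CPM in the hypoplastic and 21.3, 41.7 and 31.8 CPM in the treated libraries. Hypoplastic library 3 was the lowest of the 9 and control library 2 the highest, a 3.95-fold range, and all groups overlapped. The log2 fold changes were -0.27 (SE 0.420, edgeR adjusted p 0.830) in hypoplastic against control, 0.07 (SE 0.420) in treated against hypoplastic and -0.20 (SE 0.419) in treated against control lungs. The first changed sign without control library 2 (0.10) or hypoplastic library 3 (0.08), and the second without hypoplastic library 3 (-0.29) or treated library 2 (-0.19). The third did so without control library 2 (0.17) or treated library 1 (0.01).

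Cyp2f4 (Gene ID 54246) encodes the club cell P450 that bioactivates naphthalene in rodents. It was at 4.11, 6.69 and 1.90 CPM in control, 6.72, 3.54 and 1.18 CPM in hypoplastic and 1.42, 2.83 and 3.91 CPM in treated libraries. Hypoplastic libraries 1 and 3 were the highest and the lowest of the 9, so the group spanned the whole 5.72-fold range. The log2 fold change was -0.13 (SE 0.612, edgeR adjusted p 0.948) in hypoplastic against control, -0.50 (SE 0.620) in treated against hypoplastic and -0.63 (SE 0.619) in treated against control lungs. Without hypoplastic library 1 the first was -0.82 and the second 0.19, and without hypoplastic library 3 or control library 2 the first was 0.29 or 0.37.

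Scgb3a1 (Gene ID 338418), the large-airway secretoglobin also called HIN-1, was measured at 30.8 CPM in hypoplastic library 1 (2018 counts, exact Poisson 95% interval 29.4 to 32.1). In hypoplastic libraries 2 and 3 it was at 0.147 and 0.0905 CPM (9 and 5 counts), in the control libraries at 0.230, 0.606 and 0.0542 CPM (15, 34 and 4 counts) and in the treated libraries at 0.290, 0.167 and 0.0294 CPM (22, 14 and 2 counts). Thus 1 lung lay 50.7 times above the next highest, control library 2, while the other 8 lungs overlapped across the 3 groups. The intervals cover counting error only. The fitted log2 fold change was 5.22 (SE 1.84, edgeR adjusted p 0.345) in hypoplastic against control and -5.95 (SE 1.93, adjusted p 0.859) in treated against hypoplastic lungs. Without hypoplastic library 1 these became -1.20 and 0.46, so both differences rested on that library. In treated against control lungs the value was -0.74 (SE 2.68, adjusted p 0.998), or 0.27 without control library 2.

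The BPI-fold genes, whose products are secreted antimicrobial and surfactant-like proteins of the upper airway, were also highest in that lung. Bpifb1 (Gene ID 499926) stood at 1.51 CPM in hypoplastic library 1 (99 counts, exact Poisson 95% interval 1.23 to 1.84) and at 0.457 and 0.0724 CPM in hypoplastic libraries 2 and 3. The control libraries had 0.291, 0.464 and 0.217 CPM and the treated 0.250, 0.263 and 0.264 CPM. Its log2 fold change in hypoplastic against control lungs was 1.15 (SE 0.763, edgeR adjusted p 0.559), or -0.21 without hypoplastic library 1. In treated against hypoplastic lungs it was -1.43 (SE 0.765), or -0.07 without that library. In treated against control lungs it was -0.28 (SE 0.867), or 0.04 without control library 2.

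Bpifa1 (Gene ID 246238) had 41 counts (0.625 CPM) in hypoplastic library 1, 6 counts (0.107 CPM) in control library 2 and 7 counts (0.0922 CPM) in treated library 1. It was at 0 in the other 6 libraries, which allows up to 0.0359 to 0.0543 CPM (3 counts in each library). Detection was thus spread over 1 lung of each group, and no test was made.

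Pigr (Gene ID 25046) encodes the receptor that carries polymeric immunoglobulin across epithelia. It was at 0.429, 1.57 and 0.542 CPM in control, 0.701, 1.83 and 0.796 CPM in hypoplastic and 0.816, 0.717 and 0.705 CPM in treated libraries. Library 2 was the highest of both the control and the hypoplastic group, and the treated values lay close together inside the range of the others. The log2 fold change was 0.43 (SE 0.527, edgeR adjusted p 0.770) in hypoplastic against control and -0.57 (SE 0.521) in treated against hypoplastic lungs. Without control library 2 the first was 1.18, and without hypoplastic library 2 it was -0.14 and the second 0.00016. In treated against control lungs it was -0.14 (SE 0.537), or 0.61 without control library 2.

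Spdef (Gene ID 689210) was the member whose libraries did not overlap between hypoplastic and control lungs. It stood at 7.61, 10.4 and 7.08 CPM in control libraries, at 5.14, 4.74 and 5.54 CPM in hypoplastic libraries and at 8.64, 6.86 and 5.26 CPM in treated libraries. All 3 hypoplastic lungs were below all 3 control lungs, and the treated lungs overlapped both groups. The log2 fold change in hypoplastic against control lungs was -0.70 (SE 0.222, unadjusted p 0.0108, edgeR adjusted p 0.323). This 1 of 7 tested members without overlap and lower is to be read against 9.05% of all tested genes. The change ran from -0.81 to -0.52 with 1 library left out, the smallest without control library 2, and its lowest adjusted p over all alternatives was 0.109, by DESeq2. In treated against hypoplastic lungs it was 0.43 (SE 0.222, edgeR adjusted p 0.901) and in treated against control lungs -0.27 (SE 0.218, adjusted p 0.998). With 1 library left out the former ran from 0.24 (without treated library 1) to 0.59 (without treated library 3), and the latter from -0.46 (without treated library 1) to -0.08 (without control library 2).

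**Figure D2:**
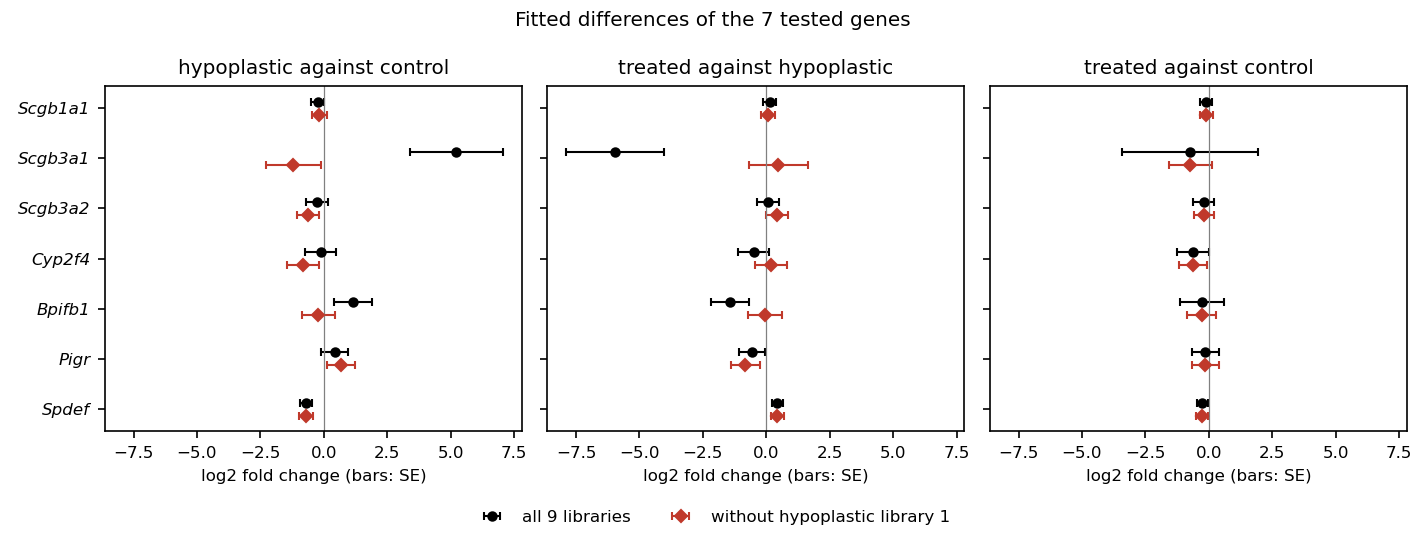
Log2 fold changes (points, with bars of 1 SE) of the 7 tested members in the 3 comparisons, with all 9 libraries (black circles) and without hypoplastic library 1 (red diamonds). Scgb3a1 and Bpifb1 move most between the settings, from 5.22 to -1.20 and from 1.15 to -0.21 in hypoplastic against control lungs, while Spdef stays at -0.70.

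Some pairs of members varied together over the 9 libraries, and several of these relations depended on the libraries included. All 21 pairs of the 7 tested members were examined on log2 CPM, with exact two-sided permutation p-values adjusted over the 21 pairs. The permutations ran over all 9 libraries without regard to group, so differences between groups enter these p-values. Cyp2f4 and Bpifb1 gave a Pearson r of 0.814 (exact p 0.00263, adjusted p 0.0276) and a Spearman rho of 0.933 (exact p 0.00075, adjusted p 0.0157). Their r was 0.748 without hypoplastic library 3 and treated library 1, the 2 libraries farthest from the median of Cyp2f4. Hypoplastic library 1, the highest for Bpifb1, stayed in. In each pair the libraries left out were the 2 farthest for the gene named first. Scgb3a2 and Cyp2f4 gave r 0.858 (exact p 0.00238, adjusted p 0.0276) and rho 0.750 (exact p 0.0255, adjusted p 0.134), with r 0.712 without the 2 farthest libraries. Scgb1a1 and Scgb3a2 gave r 0.700 (exact p 0.0305, adjusted p 0.128) and rho 0.767 (exact p 0.0214, adjusted p 0.134), with r 0.554 without the 2 farthest libraries. Scgb3a2 and Bpifb1 gave r 0.760 (exact p 0.0254, adjusted p 0.128) and rho 0.783 (exact p 0.0172, adjusted p 0.134), with r 0.607 without the 2 farthest. Neither of these pairs passed the adjustment. Scgb3a1 and Bpifb1 gave r 0.827 (exact p 0.0138, adjusted p 0.0964) and rho 0.617 (exact p 0.0857, adjusted p 0.360), and r was 0.588 without hypoplastic library 1 and treated library 3. Spdef gave r between -0.112 and 0.187 with each other member. Without the 2 farthest libraries, however, r moved from 0.187 to -0.653 for Scgb3a2 and Spdef and from -0.056 to 0.701 for Scgb3a1 and Spdef. Likewise r for Bpifb1 and Pigr moved from 0.204 to 0.854, so these relations rest on the libraries included. Batches are not labelled, so no value within a batch could be given.

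Of 9569 other named genes averaging 5 CPM or more, those whose log2 CPM followed Scgb1a1 most closely over the 9 libraries were Itpkb (Pearson r 0.952), Bmp3 (0.944), Nat9 (0.911), Sik1 (0.892), Wnt4 (0.885) and Acer2 (0.884). For Scgb3a2 they were Capn2 (0.949), Pigp (0.921), Stk39 (0.915), Gnl2 (0.904), Fah (0.887) and Cyfip2 (0.884). The lists of 6 had no gene in common. With so many genes and 9 libraries these values describe the pattern only.

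A wider list of 40 secretory airway genes was examined beside the members. Not all of them are specific to secretory cells. Sftpd, Lyz2, Krt15 and Atp1b1 were among them, and Ltf was also on the neutrophil list. The wider list held 36 genes of the table, of which 30 were tested. In hypoplastic against control lungs edgeR called 0 of 30 (14 higher and 16 lower, median log2 difference -0.03 beside 0.01 over all tested genes). Unadjusted p-values under 0.05 were found for 4 higher and 3 lower genes, beside 6.67% and 5.69% of all genes. Of the genes whose libraries did not overlap, 1 was higher and 3 were lower (10% of the list), beside 7.68% and 9.05% of all genes. DESeq2 called 1 gene, Tspan8. The balance of directions depended on single libraries: it was 19 higher and 12 lower (median 0.06) without control library 2, and 18 higher and 14 lower (median 0.07) without hypoplastic library 3.

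Tspan8, a tetraspanin of epithelial membranes, was at 92.3, 164 and 109 CPM in control and at 74.9, 70.4 and 70.0 CPM in hypoplastic libraries (log2 fold change -0.76, SE 0.182, edgeR adjusted p 0.317). It was at 79.3, 75.0 and 80.3 CPM in treated libraries, also below every control library (-0.64, SE 0.182, adjusted p 0.998). Atp1b1, a subunit of the sodium pump, differed by -0.42 (SE 0.152, adjusted p 0.354) in hypoplastic against control lungs without overlap. Cyp2b1, a P450 of rat club cells, had control values of 4.23, 7.13 and 3.74 CPM above hypoplastic values of 3.46, 3.20 and 0.652 CPM, with an unadjusted p of 0.119. Gsto1, a glutathione transferase, was higher by 0.67 (SE 0.217, adjusted p 0.325), with 9.79 CPM in control and 15.6 CPM in hypoplastic lungs on average. Aox3, an aldehyde oxidase, was lower by value in treated than in control lungs without overlap (2.15 against 3.70 CPM on average, -0.78, SE 0.265, adjusted p 0.998). None of these passed edgeR's threshold.

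**Figure D3:**
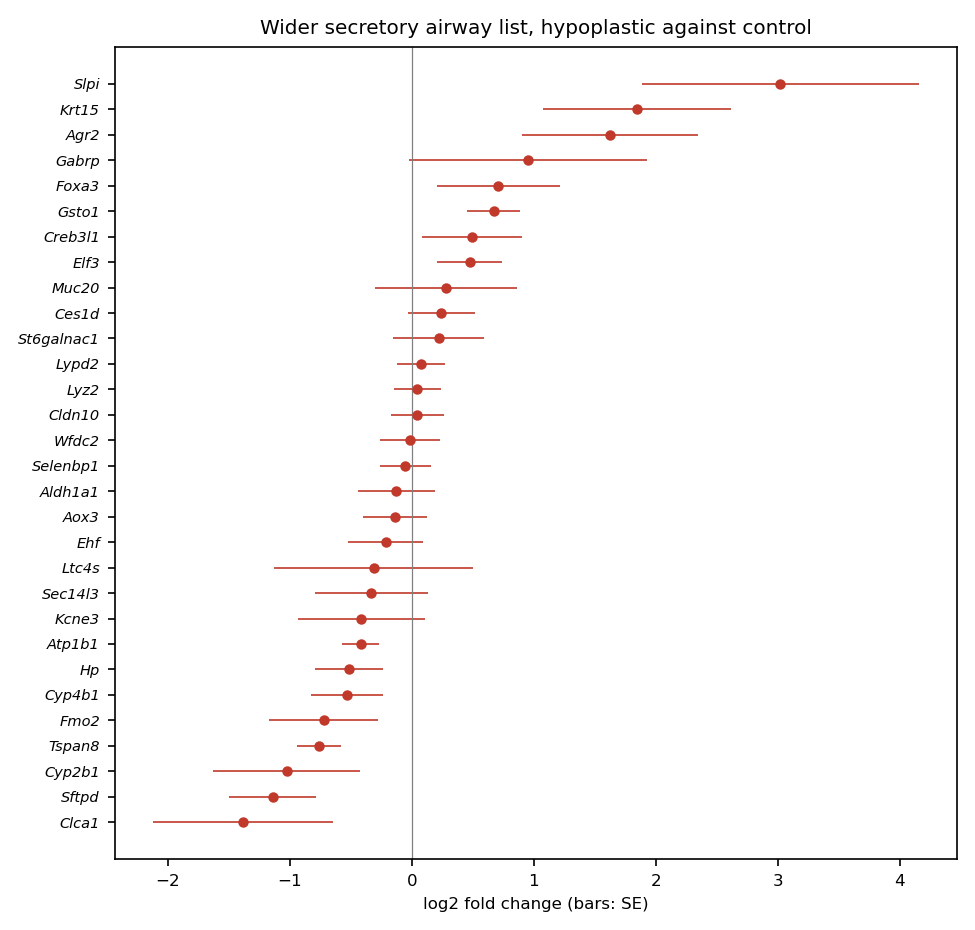
Log2 fold changes in hypoplastic against control lungs (points, with bars of 1 SE) of the 30 tested genes of the wider secretory list, ordered by size. Positive values are higher in hypoplastic lungs. The genes spread to both sides of 0, with 14 higher and 16 lower.

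Some of the largest values in that list came from 1 library. Agr2, a protein disulfide isomerase needed for mucin production, was at 13.1 CPM in hypoplastic library 1 and at 3.01 CPM or less in the other 8. Krt15, a keratin of basal and early secretory cells, was at 63.0 CPM there and at 3.53 to 18.0 CPM elsewhere. Slpi, a secreted protease inhibitor, was at 23.8 CPM in hypoplastic library 2 and at 0.321 to 4.99 CPM elsewhere. These 3 genes were chosen after their values were seen. Between treated and hypoplastic lungs edgeR called 0 of 30 (14 higher and 16 lower, median -0.04), with 0 higher and 2 lower at an unadjusted p under 0.05, where 2% and 3.56% of all genes were. Between treated and control lungs it called 0 of 30 (12 higher and 18 lower, median -0.08), with 0 higher and 2 lower, where 1.67% and 2.5% of all genes were. DESeq2 called 0 of the list in both. These tallies also turned with 1 library left out. Between treated and hypoplastic lungs 17 were higher and 14 lower without hypoplastic library 1 (median 0.04) or without treated library 1 (also 0.04). Between treated and control lungs 20 were higher and 11 lower (median 0.07) without control library 2, and 16 higher and 15 lower (median 0.02) without treated library 1.

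Markers of other cell types were set beside the members in the same libraries. All 7 tracheal cartilage genes in the table (of 8 listed) were highest in hypoplastic library 1: Matn1 was at 9.20 CPM there and at 0.0949 CPM or less elsewhere, and Comp at 9.45 CPM against 0.359 CPM or less. Basal cell genes did likewise, with 4 of 6 highest there. Krt5 was at 14.9 CPM there, at 0 in hypoplastic library 3 and at 0.482 CPM or less in all others, and Tp63 was at 8.30 CPM against 1.60 CPM or less. Ngfr was highest in hypoplastic library 2 (3.09 CPM, beside 1.36 CPM in hypoplastic library 1). In hypoplastic against control lungs all 5 tested basal genes were higher (0 called, median log2 difference 3.70). Without hypoplastic library 1, 4 were higher and 1 lower (median 1.06). Krt14 and Ngfr, 2 of the 5, were higher without overlap, beside 7.68% of all tested genes. The summed level of the basal list was 1.93 to 4.17 CPM in control, 3.87 to 87.0 CPM in hypoplastic and 3.11 to 5.67 CPM in treated lungs, with the 87.0 in hypoplastic library 1. That of the cartilage list was 130 to 430 CPM in control, 383 to 1012 CPM in hypoplastic and 402 to 503 CPM in treated lungs. Such sums follow the most abundant gene. Col2a1 was at 118 to 510 CPM in the others and made up 894 of the 1012 CPM in hypoplastic library 1. Heart muscle genes, 5 of 6 of them, were highest there too, with a sum of 241 CPM, and at 113 CPM in hypoplastic library 2, beside 3.96 to 18.0 CPM in the other 7 libraries. Airway smooth muscle genes were highest there in 5 of 6 cases, with a sum of 867 CPM beside 190 to 716 CPM in the others.

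Multiciliated cell genes did not share this pattern: 0 of the 9 in the table (12 listed) were highest in hypoplastic library 1, and their sum there was 0.939 times the median of the 9 libraries, with the others at 0.824 to 2.09 times. The sum of 11 general epithelial genes was 2220 CPM in that library and 1892 to 2510 CPM over the others. The wider secretory list had 11 of 36 genes highest in that library, with a sum 1 times the median of the 9 libraries. Neutrophil and neuroendocrine sums were also highest there (87.9 and 3.66 CPM), with 4 of 6 and 2 of 6 genes highest. Scgb3a1 ranked second of the genes at 3 CPM or more there by the ratio of hypoplastic library 1 to the highest other library, after Matn1 and before Krt5 and Comp. The part of these marker genes' cells in the values of Scgb3a1, Bpifa1 and Bpifb1 was not tested.

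**Figure D4:**
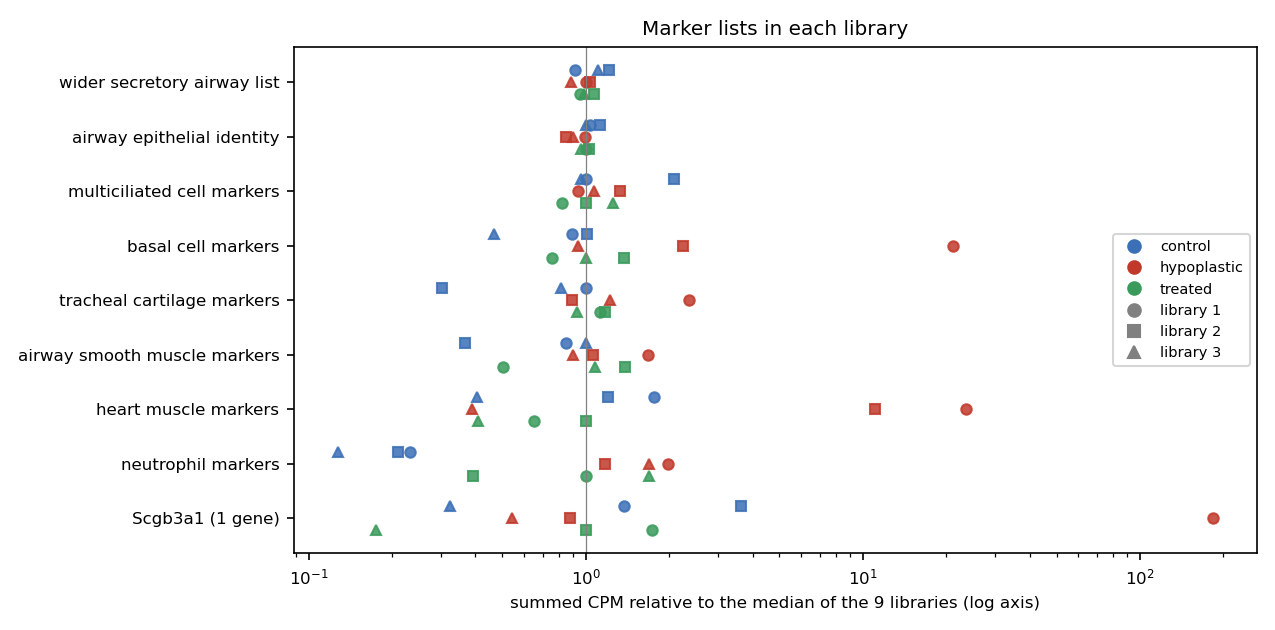
Summed CPM of marker lists, and of Scgb3a1 alone, in each library relative to the median of the 9 libraries (log axis). Colours are groups and shapes are library numbers. Hypoplastic library 1 (red circle) lies at 21.1 times the median for basal, 2.35 times for cartilage, 23.6 times for heart muscle and 0.939 times for multiciliated genes. It lies at 1.99 times for neutrophil genes and at 1 times for the wider secretory list. The cartilage value mostly follows Col2a1, with 894 of the 1012 CPM summed in that library.

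Some other epithelial genes had lower values in the same lungs as Spdef. The factor genes Nkx2-1 and Foxa1 and the adhesion gene Cdh1 were also lower in hypoplastic than in control lungs without overlap. Their log2 fold changes were -0.36 (SE 0.136), -0.39 (SE 0.158) and -0.25 (SE 0.0998), with edgeR adjusted p of 0.360, 0.379 and 0.369. These were 3 of the 11 general epithelial genes, beside 9.05% of all tested genes lower without overlap. All 6 alveolar type II genes were lower (0 called, median -0.81), and their summed level was 2904 to 5508 CPM in control and 2051 to 2519 CPM in hypoplastic lungs. Control library 2 held the 5508 CPM and was the highest library for all 6, and without it 6 were still lower with a median of -0.50. The general epithelial list had 4 of 11 genes higher (Sox2, Foxa2, Krt18 and Cldn4, by 0.09 to 0.23). It had 7 lower, with a median of -0.22 over the 11, and 0 called. That median was -0.12 without control library 2 or without hypoplastic library 2. In treated against hypoplastic lungs Nkx2-1 was higher without overlap (0.40, SE 0.136, edgeR adjusted p 0.859). All 6 type II genes were also higher there (0 called, median 0.46). Of these, Sftpc (0.65, SE 0.219, edgeR adjusted p 0.859) and Slc34a2 (0.55, SE 0.232, adjusted p 0.895) did not overlap. Over all tested genes, 5.07% were higher without overlap in that comparison. The part of these epithelial genes in the Spdef values was not tested.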

How the data were processed

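Per the labels' protocols, RNA of frozen, powdered lungs was extracted on 1 day and depleted of ribosomal RNA with Ribo-Zero Plus. The authors deposited 1 table of estimated counts, 19.5% of its nonzero values whole, with 9 library columns and no scaling between libraries. Per the submitters' processing notes the build was rn7 and DESeq2 was used; the sources used here do not give the aligner, counting program or annotation, so reads shared by similar genes are uncertain. Gene symbols came from RefSeq (GRCr8), which matched 17314 IDs (99.1%).

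Counts were rounded and tested with edgeR 4.0.16 (R 4.3.3; glmQLFit, glmQLFTest, TMM, filterByExpr, 12966 genes kept), with all 9 libraries in 1 fit and Benjamini-Hochberg adjustment over all genes within each of 3 comparisons. SE is the absolute log2 change divided by the square root of F. The test was checked on counts simulated with the fitted spread of each gene. It recovered 35 of 50 genes changed 2-fold, 43 of 49 changed 4-fold, 48 of 50 changed 8-fold and 45 of 50 changed 16-fold. There were 10 false calls, with 12881 genes tested. No outlying library was simulated, so the check does not cover genes high in 1 lung. DESeq2 1.42.0 and limma 3.58.1 (voom), other size factors and filters, a replicate block, a sex covariate and the omission of ribosomal rows or of each library were alternatives. The closest replicate libraries differed with a chi-square per degree of freedom of 134.9, and none was treated as a repeat.

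Named were all members and some list genes that met a rule. The rule took up to 4 genes per direction with an unadjusted p under 0.05, no overlap and a mean of at least 1 CPM. Sftpb, Lamp3, Camp, Mpo and Tnni3 also met it and were not described singly. The members and lists were chosen with earlier results of these data known. Named outside that rule, after their values were seen, were genes high in 1 library, Cyp2b1, Ngfr and the general epithelial genes Sox2, Foxa2, Krt18 and Cldn4. Sftpd, Lyz2 and Ltf were named only to describe the wider list. Both promoter motifs were chosen after the sequences were read. Lists of other cell types are given by their sums and counts.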

Additional observations from a re-analysis of the deposited data

How the results depend on the processing

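No member was called under any of the 393 values of the alternatives, and 22 of them changed sign. With 1 library left out, log2 changes in hypoplastic against control lungs ran from -0.47 to -0.0061 for Scgb1a1, -1.20 to 6.22 for Scgb3a1, -0.63 to 0.10 for Scgb3a2, -0.82 to 0.37 for Cyp2f4, -0.21 to 1.65 for Bpifb1 and -0.14 to 1.18 for Pigr. In treated against hypoplastic lungs they ran from -0.0022 to 0.36 for Scgb1a1, -6.61 to 0.46 for Scgb3a1, -0.29 to 0.43 for Scgb3a2, -0.92 to 0.19 for Cyp2f4 and -0.82 to 0.00016 for Pigr. In treated against control lungs they ran from -0.29 to 0.13 for Scgb1a1, -1.40 to 0.27 for Scgb3a1, -0.46 to 0.17 for Scgb3a2, -0.52 to 0.039 for Bpifb1 and -0.44 to 0.61 for Pigr. With sex as a covariate Cyp2f4 also changed sign in hypoplastic against control lungs (0.068), and Pigr with limma voom in treated against control lungs (0.10). The directions of Spdef held under every alternative run in all 3 comparisons. limma voom gave 2.15 for Scgb3a1 in hypoplastic against control and -2.77 in treated against hypoplastic lungs.

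The count of called genes was 207, 17 and 14 with DESeq2 in the 3 comparisons. In hypoplastic against control lungs it was 4 with only the 6 libraries compared and 2 with the replicate block. Leaving out 1 library gave 0 to 45, 0 to 44 and 0 to 1, with 45 and 44 both reached without hypoplastic library 3. The wider secretory list had 1 called gene with DESeq2 in hypoplastic against control lungs and 0 under the other alternatives. The causes were not tested. Nothing says that the library numbers pair the lungs, so the main fit had no block. Same-numbered libraries correlated in their deviations from the group means by -0.282 to 0.227 (above 0.1 in 3 of 9 pairs). Differently numbered libraries of different groups did so by -0.439 to 0.389 (above 0.1 in 7 of 18 pairs). The replicate block changed no call among the members. Values under about 1 CPM rest on few counts and cannot show small differences.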

Other observations

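Neutrophil genes had higher values in hypoplastic than in control lungs without passing the test. All 5 tested (of 6) were higher without overlap of the libraries, as were 7.68% of all tested genes. S100a8 went from 3.92 to 30.0 CPM and S100a9 from 2.99 to 29.9 CPM on average (edgeR adjusted p 0.185 for each). Of the 5, 0 were called, or 2 without treated library 2. Without hypoplastic library 1 the median log2 fold change of the list was 3.16, beside 3.32 with it. In treated against control lungs all 5 were also higher (0 called, median 2.75). Of these, 4 did not overlap, beside 4.37% of all tested genes. In treated against hypoplastic lungs all 5 were lower by value (0 called, median -0.74).

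Of the other lists in hypoplastic against control lungs, edgeR called 0 genes. The airway smooth muscle list had 6 of 6 genes higher (median 0.72), but 5 of 6 (median 0.30) without hypoplastic library 1, and a median of 0.43 without control library 2. The multiciliated list had 8 of 9 lower (median -0.35), but 7 higher and 2 lower (median 0.15) without control library 2, the highest library for 8 of these 9. The blood list had 4 of 4 lower (median -0.60), but 2 higher and 2 lower (median -0.03) without control library 2, the highest library for all 4. The alveolar type I list had 4 of 6 lower (median -0.40), with medians of -0.77 without hypoplastic library 2 and -0.16 without control library 2. The neuroendocrine list had 3 of 4 higher (median 0.53), with a median of 1.02 without control library 3 and 0.80 without hypoplastic library 3. Of the oesophagus and stomach list 1 of 7 genes, Krt4, could be tested (-0.88, SE 0.373, edgeR adjusted p 0.389), at -0.45 without control library 2.

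Among the genes highest in hypoplastic library 1, chosen after their values were seen, Gp2, a glycoprotein of M cells, was at 7.20 CPM there and at 0.303 CPM or less elsewhere, and the chitinase gene Chia at 36.7 CPM and 4.23 CPM or less. In control library 2 the intestinal genes Apoa4 (10.4 CPM against 0.169 CPM or less) and Lct (6.71 CPM against 0.306 CPM or less) stood apart, and the goblet cell gene Clca1 was at 3.50 CPM there against 0.271 to 1.23 CPM in the other libraries. Their part in the values of the members was not tested.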
